A study of Rattus norvegicus with 16 samples.

Results

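Corticosteroid signalling in the rat brain was followed through 10 genes: the receptors Nr3c1 and Nr3c2, the enzyme Hsd11b1, and 7 genes known to respond to glucocorticoids or to stress (Dusp1, Zbtb16, Fkbp5, Sgk1, Tsc22d3, Errfi1 and Sult1a1). The genes were taken by symbol, and all 10 were found among the 16514 symbols of the tables for the 2 brain regions. A symbol with several loci was taken at the locus with the highest mean. Dusp1 had 2 loci in the hippocampus table and Nr3c2 had 2 in each table, so their values are uncertain, since reads may have been split between loci. Messenger RNA of the hippocampus and the hypothalamus was sequenced from male Sprague Dawley rats, either given fructose for 6 weeks or left untreated. The labels name no dose, age or other agent, and the controls are labelled as given none. Values are FPKM, fragments counted per unit of transcript length and of sequenced fragments. The hippocampus comparison had 4 fructose and 4 control libraries, and the hypothalamus comparison had 3 fructose and 4 control libraries, because fructose replicate 4 of the hypothalamus has no column in the table and was not analysed here.

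Corticosterone, the main glucocorticoid of rats, enters cells freely and binds 2 nuclear receptors. The mineralocorticoid receptor has the higher affinity and is known for its abundance in the hippocampus, while the glucocorticoid receptor is found in most brain cells and is engaged as hormone levels rise with stress or at the daily peak. Bound receptors move into the nucleus, sit on response elements in DNA and induce target genes, some of which feed back on the receptor itself.

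Each library was compared with the others before the genes were read. The 2 replicate 1 libraries of each region stood apart. In hippocampus the pair had r = 0.985 across tested loci, against 0.84 to 0.896 between either of them and another library. In hypothalamus the pair had r = 0.98, against 0.88 to 0.909. Each group holds 1 of them. Markers of hypothalamic neurons summed to 3318 to 8914 FPKM in hypothalamus libraries and to 3.82 to 28.6 FPKM in hippocampus libraries. Hippocampal neuron markers summed to 78.3 to 105.8 FPKM in hypothalamus and to 200.7 to 374.9 FPKM in hippocampus libraries, in the direction the labels give. Depth is unknown, because the tables hold no read counts. Nothing says that samples of a group came from separate animals, so p-values measure the spread between samples, which may be technical.

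None of the 10 genes changed past the threshold in either region. With limma over all loci with a mean of at least 1 FPKM, on log2(FPKM + 1), the lowest adjusted p among the 10 was 0.9999 in hippocampus and 0.9998 in hypothalamus. Among all loci, 0 of 11385 (0%) passed in hippocampus. In hypothalamus 1 of 11498 (0.0087%) passed, the zinc transporter Slc39a12, and 2 when the replicate number was a block, Rnpep being the other. That block leaves control replicate 4 without a partner and so without weight. Neither gene is among the 10. At an unadjusted p under 0.05 the limma fit had 0 of the 10 genes in hippocampus, where 0.808% of all loci did so, and 3 of the 10 in hypothalamus (Dusp1, Zbtb16 and Sult1a1), where 3.14% did so. Without both replicate 1 libraries, 152 hippocampus and 1065 hypothalamus loci had such a p. The opposite courses of Dusp1 and Zbtb16 in hypothalamus were known when the genes were picked, so that count is a description. What the data hold is the level of each gene in each library, given below by the part the gene plays.

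**Figure D1:**
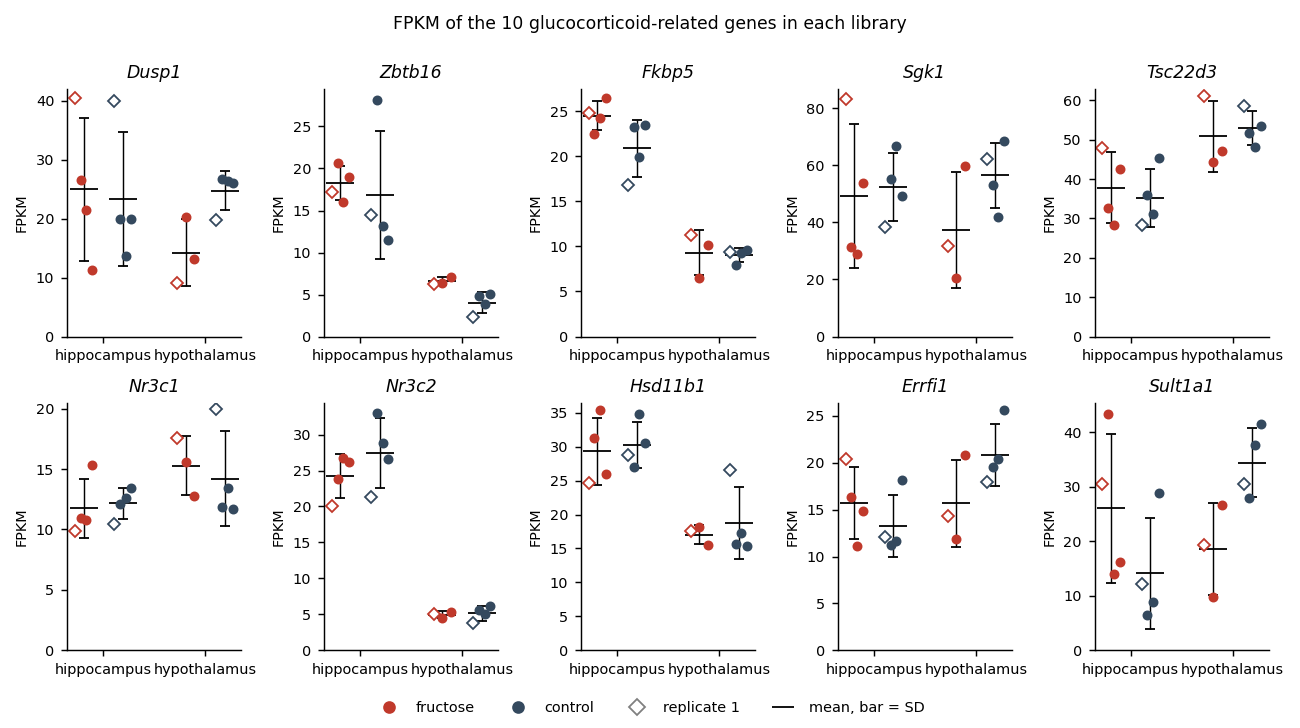
FPKM of the 10 genes (vertical axes, each from 0) in every library of hippocampus and hypothalamus; red points are fructose and blue points control libraries, open diamonds are the replicate 1 libraries, and black marks give the mean with the SD. In hypothalamus the 3 fructose libraries of Zbtb16 lie above and those of Sult1a1 below all 4 control libraries, while the groups of the other 8 genes overlap, as do all 10 in hippocampus.

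The glucocorticoid receptor gene Nr3c1, whose product binds corticosterone at stress levels, overlapped between the groups in both regions. In hippocampus it measured 9.91, 10.98, 10.8 and 15.3 FPKM in fructose libraries 1 to 4, against 10.45, 12.1, 12.6 and 13.5 FPKM in control libraries 1 to 4. In hypothalamus the values were 17.5, 15.6 and 12.7 FPKM in fructose and 19.9, 11.8, 13.4 and 11.7 FPKM in control libraries. Replicate 1 was the highest of its group in hypothalamus and the lowest in hippocampus. The log2 fold change, fructose over control, was -0.06 ± 0.15 (SE of the model) in hippocampus and 0.12 ± 0.21 in hypothalamus. The hypothalamus value ran from 0.02 without fructose replicate 1 to 0.283 without control replicate 1. Over those libraries Nr3c1 averaged 11.96 FPKM in hippocampus and 14.7 FPKM in hypothalamus. The 2 tables may have been scaled separately, so levels set across regions are descriptions.

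The mineralocorticoid receptor gene Nr3c2 was the member with the widest gap between regions, and that gap sat at 1 of its 2 loci. Locus numbers differ between the tables, but one Nr3c2 locus follows Prmt10 and the other follows Arhgap10 in each. After Prmt10, Nr3c2 measured 20.0, 23.9, 26.7 and 26.2 FPKM in hippocampus fructose libraries, against 21.4, 32.9, 28.8 and 26.7 FPKM in control libraries. The locus in the same place in the hypothalamus table stood at 4.73, 5.10 and 4.98 FPKM in fructose and 5.66, 4.98, 4.79 and 4.29 FPKM in control libraries. Every hippocampus library thus lay above every hypothalamus library at this locus. After Arhgap10 the regions were closer, with 4.93, 5.77, 6.29 and 7.39 FPKM in fructose and 4.58, 7.50, 7.91 and 7.44 FPKM in control hippocampus. The hypothalamus values there were 5.01, 4.52 and 5.39 FPKM in fructose and 3.80, 5.67, 4.99 and 6.22 FPKM in control libraries.

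The rule of the highest mean takes the locus after Prmt10 in hippocampus (25.8 FPKM) but the one after Arhgap10 in hypothalamus, by a small margin (5.09 against 4.93 FPKM). The first locus was 3.55 to 4.67 times the second in the 8 hippocampus libraries, and the chosen one was 0.672 to 1.45 times the other in the 7 hypothalamus libraries. Fructose set the groups apart at none of these loci. At the chosen loci the log2 fold change was -0.17 ± 0.15 in hippocampus and -0.03 ± 0.17 in hypothalamus. At the others it was -0.13 ± 0.18 in hippocampus and 0.01 ± 0.13 in hypothalamus. In hippocampus the fructose library was below the same-numbered control library in all 4 pairs at the chosen locus, by 0.02 to 0.45 on the log2 scale. Dropping control replicate 1 moved the value of -0.17 to -0.275, dropping control replicate 2 to -0.075 and dropping fructose replicate 1 to -0.081.

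**Figure D2:**
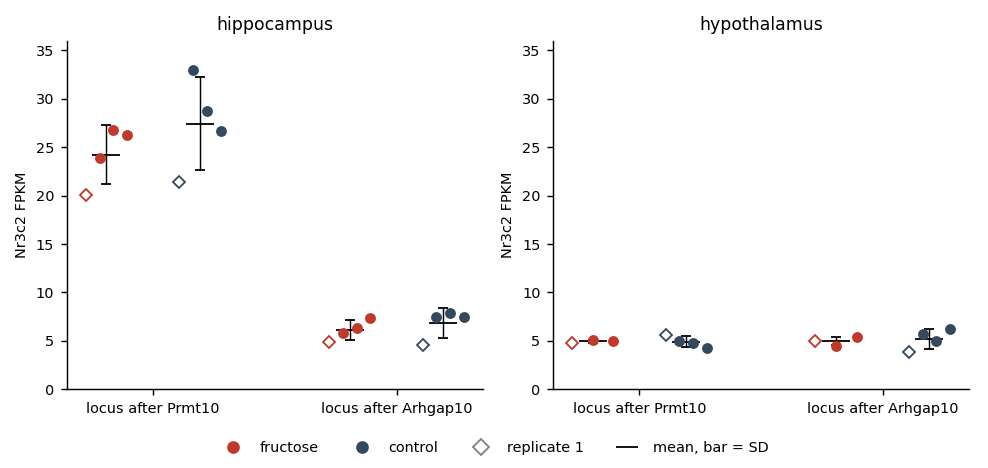
FPKM of the 2 Nr3c2 loci (vertical axis, the same from 0 in both panels) in hippocampus and hypothalamus, named by the gene in the row before them; red points are fructose, blue points control libraries, open diamonds replicate 1, and black marks the mean with the SD. The locus after Prmt10 lies at 20.0 to 32.9 FPKM in hippocampus and 4.29 to 5.66 FPKM in hypothalamus, while the locus after Arhgap10 lies at 4.58 to 7.91 and 3.80 to 6.22 FPKM.

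Hsd11b1 encodes the reductase that regenerates active corticosterone from its inert 11-keto form inside cells. Its groups overlapped in both regions. Hippocampus fructose libraries held 24.6, 31.3, 35.3 and 26.0 FPKM, and control libraries 28.8, 27.0, 34.8 and 30.5 FPKM. In hypothalamus Hsd11b1 was at 17.5, 18.1 and 15.5 FPKM in fructose and at 26.6, 15.6, 17.2 and 15.4 FPKM in control libraries. Control replicate 1 alone stood out there, and the others of both groups shared the same narrow range. Log2 fold changes were -0.05 ± 0.14 in hippocampus and -0.09 ± 0.20 in hypothalamus. Without both replicate 1 libraries it was 0.002 in hippocampus and 0.06 in hypothalamus, on the other side of 0.

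Fkbp5 encodes a co-chaperone of the receptor complex that lowers the receptor's affinity for hormone and is itself induced by it, a short feedback loop. Hippocampus libraries measured 24.8, 22.5, 24.3 and 26.4 FPKM with fructose and 16.8, 23.2, 19.9 and 23.4 FPKM without. Fructose replicates 1, 3 and 4 were above all controls, yet fructose replicate 2 lay below control replicates 2 and 4, so the groups overlapped. Fkbp5 thus had a log2 fold change of 0.23 ± 0.13, and of 0.13 without both replicate 1 libraries. In hypothalamus, where Fkbp5 averaged 9.16 FPKM against 22.7 FPKM in hippocampus, values were 11.3, 6.51 and 10.1 FPKM in fructose and 9.42, 7.92, 9.25 and 9.63 FPKM in control libraries. The fructose libraries there spanned the control range on both sides, with a log2 fold change of 0.01 ± 0.19.

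Tsc22d3 encodes the glucocorticoid-induced leucine zipper protein, which restrains inflammatory transcription and is a common readout of receptor activity. It measured 47.8, 32.6, 28.3 and 42.6 FPKM in fructose and 28.4, 35.9, 31.2 and 45.3 FPKM in control hippocampus. In hypothalamus the values were 61.2, 44.4 and 47.1 FPKM in fructose and 58.6, 51.8, 48.1 and 53.6 FPKM in control libraries. Libraries of the 2 groups were interleaved in both regions, with log2 fold changes of 0.09 ± 0.20 and -0.07 ± 0.15. The hippocampus value was -0.12 without both replicate 1 libraries.

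Zbtb16, a zinc finger transcription factor that glucocorticoids induce in many cell types, was higher in every fructose library of the hypothalamus. It stood at 6.26, 6.34 and 7.10 FPKM in fructose and at 2.34, 4.80, 3.91 and 5.07 FPKM in control libraries. The fructose libraries were close together, and control replicate 1 was the lowest of all. Group means were 6.57 ± 0.459 FPKM (SD, n = 3) and 4.03 ± 1.23 FPKM (SD, n = 4), with a log2 fold change of 0.62 ± 0.22 that did not pass the test (limma adjusted p = 0.9998). The log2 fold change was 0.47 without both replicate 1 libraries. Of the 10 genes, 1 had every fructose library above every control library in hypothalamus, where 1.75% of all loci did; in hippocampus there were 0, where 0.255% did.

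In hippocampus Zbtb16 averaged 17.5 FPKM over all libraries, against 5.12 FPKM in hypothalamus, and its groups overlapped. Fructose libraries held 17.2, 20.7, 16.1 and 19.0 FPKM, and control libraries 14.5, 28.2, 13.2 and 11.5 FPKM. Control replicate 2 was the highest of the 8 libraries, and the other 3 controls were the lowest. The log2 fold change was 0.19 ± 0.25. It moved to 0.45 when control replicate 2 was dropped, to 0.10 when control replicate 3 was and to 0.045 when control replicate 4 was.

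Dusp1 encodes a nuclear phosphatase that switches off MAP kinases, and it is induced both by glucocorticoids and, within minutes, by growth factors and neuronal activity. In hypothalamus it measured 9.07, 20.3 and 13.2 FPKM in fructose and 19.7, 26.7, 26.5 and 26.1 FPKM in control libraries. Fructose replicate 2 lay above control replicate 1, which was itself low among the controls, so the groups overlapped by this one pair of libraries. Means were 14.2 ± 5.70 FPKM (SD, n = 3) with fructose and 24.7 ± 3.35 FPKM (SD, n = 4) without, and the log2 fold change was -0.82 ± 0.25 (limma adjusted p = 0.9998). It was negative in all 3 same-numbered pairs and -0.65 without both replicate 1 libraries.

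In hippocampus the Dusp1 groups overlapped through most of their range. Fructose libraries were at 40.4, 26.6, 21.5 and 11.3 FPKM and control libraries at 39.9, 19.9, 13.7 and 20.0 FPKM. Both replicate 1 libraries were at the top, and their mean was 2.13 times that of the other 6. Fructose over control gave a log2 fold change of 0.07 ± 0.41. Leaving out fructose replicate 1 gave -0.202, fructose replicate 2 -0.007, fructose replicate 4 0.38, control replicate 1 0.35 and control replicate 3 -0.143. The second Dusp1 locus of this table was at 3.41, 3.25, 2.17 and 1.01 FPKM in fructose and at 3.36, 1.44, 0.972 and 1.69 FPKM in control libraries. The first locus was 8.19 to 14.1 times the second in the 8 libraries.

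Sgk1 encodes a kinase, induced by both corticosteroid receptors, that raises ion channel and transporter activity at the membrane. Hypothalamus fructose libraries held 31.8, 20.3 and 59.7 FPKM, and control libraries 62.1, 53.1, 42.0 and 68.4 FPKM. Replicates 1 and 2 with fructose were below every control, and replicate 3 lay within the control range. The log2 fold change of -0.69 ± 0.35 was -0.34 without fructose replicate 2 and -1.09 without fructose replicate 3. In hippocampus Sgk1 stood at 83.3, 31.4, 28.9 and 53.7 FPKM in fructose and 38.5, 55.0, 66.7 and 49.2 FPKM in control libraries. Fructose libraries were both the highest and the 2 lowest of the 8, and the log2 fold change of -0.19 ± 0.34 was -0.615 without both replicate 1 libraries and 0.02 without fructose replicate 3.

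Errfi1 encodes an inhibitor of the epidermal growth factor receptor that stress hormones and mitogens induce. In hypothalamus it was at 14.4, 11.8 and 20.8 FPKM in fructose and at 17.9, 19.5, 20.4 and 25.6 FPKM in control libraries. Again fructose replicates 1 and 2 were below every control and replicate 3 was within the control range. Errfi1 had a log2 fold change of -0.42 ± 0.21, and it was -0.245 without fructose replicate 2 and -0.63 without fructose replicate 3. In hippocampus the values were 20.4, 16.4, 11.2 and 14.8 FPKM in fructose and 12.1, 11.2, 11.7 and 18.1 FPKM in control libraries. The groups overlapped, and the log2 fold change of 0.22 ± 0.21 was 0.06 without both replicate 1 libraries and 0.37 without control replicate 4.

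Sult1a1, a sulfotransferase of phenols and catecholamines whose gene glucocorticoids induce in rat liver, had the largest fold changes of the 10 genes in both regions, in opposite directions, though in hypothalamus Dusp1 had the larger one (-1.095 against -0.561) without fructose replicate 2. In hypothalamus Sult1a1 measured 19.4, 9.69 and 26.5 FPKM in fructose and 30.5, 27.8, 37.6 and 41.5 FPKM in control libraries. Every fructose library lay below every control library, though fructose replicate 3 and control replicate 2 were close. Means were 18.5 ± 8.46 FPKM (SD, n = 3) with fructose and 34.4 ± 6.28 FPKM (SD, n = 4) without, a log2 fold change of -0.94 ± 0.32 (limma adjusted p = 0.9998) that was -0.56 without fructose replicate 2. Of the 10 genes, 1 had every fructose library below every control library in hypothalamus, where 1.58% of all loci did; in hippocampus there were 0, where 0.413% did.

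In hippocampus Sult1a1 stood at 30.5, 43.4, 14.0 and 16.1 FPKM in fructose and at 12.1, 6.46, 8.90 and 28.9 FPKM in control libraries. The 3 lowest values were controls, while control replicate 4 was above fructose replicates 3 and 4. Its log2 fold change there was 0.91 ± 0.49 (limma adjusted p = 0.9999), with the fructose library higher in 3 of 4 same-numbered pairs.

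**Figure D3:**
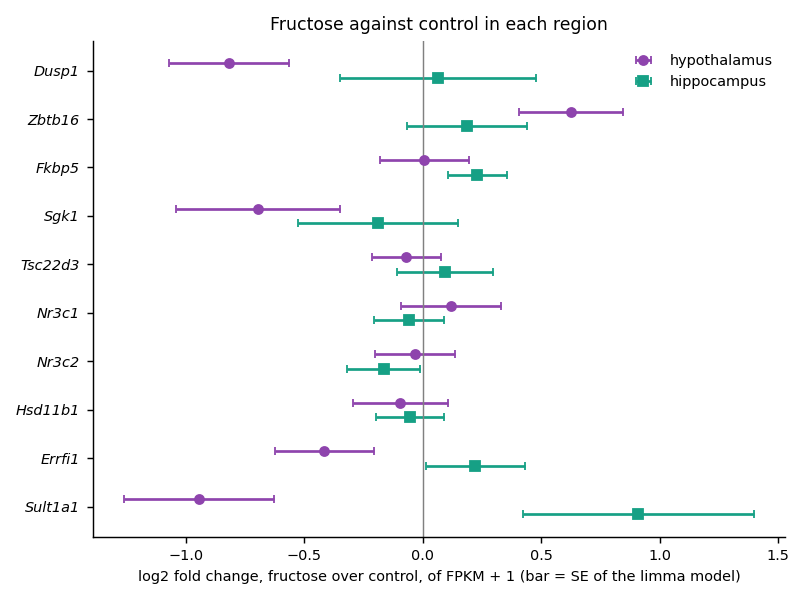
Log2 fold change of FPKM + 1, fructose over control (horizontal axis), of the 10 genes with the SE of the limma model; purple circles are hypothalamus and green squares hippocampus. Sult1a1 lies at -0.94 in hypothalamus and 0.91 in hippocampus, Dusp1 at -0.82 and 0.07, and Zbtb16 at 0.62 and 0.19.

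The difference of the fructose change between the regions, hypothalamus minus hippocampus, was tested for 8239 symbols, those that occur once per table. By limma 0 (0%) passed after adjustment, while 2.54% were under 0.05 before it. Of the 8 members in that test 0 passed and 1 was under 0.05 before adjustment, namely Sult1a1, with a difference of -1.85 ± 0.61 on the log2 scale. For Errfi1 the difference was -0.64 ± 0.30, for Sgk1 -0.51 ± 0.49 and for Zbtb16 0.44 ± 0.34. Sgk1 had a difference of 0.02 without the replicate 1 libraries, and Zbtb16 one of 0.17 without hippocampus control replicate 2. Dusp1 and Nr3c2 entered only when every symbol was taken at its highest locus, a choice made after seeing the data, with differences of -0.88 ± 0.52 and 0.13 ± 0.23 (limma adjusted p = 0.9999 for both). For Nr3c2 that rule sets the locus after Arhgap10 in hypothalamus against the one after Prmt10 in hippocampus, so its value subtracts the changes of different loci. The labels do not say whether both regions came from the same rats, and the model took all libraries as independent, so the SE and p of these differences rest on that.

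Promoter sequence was available for 7 of the 10 genes, at 12 start sites, from RefSeq on build GRCr8; the deposited values were made on build rn5. The window runs from 250 bases before to 50 bases after each start. A pair of motifs was searched on both strands. One was the glucocorticoid response half-site, which is AGAACA when read on the strand of the gene and TGTTCT when it lies on the opposite one. The other was the core of the element bound by the cyclic AMP responsive factor CREB, which is TGACGT in one orientation and reads ACGTCA in the opposite one. The half-site occurred in 20.7% of all 33469 windows and the core in 7.94%. The 3 windows below, of Dusp1, Errfi1 and Sult1a1, are printed because they were the only ones of the 12 with a match. Capitals mark the matches. The Dusp1 window is chr10:17184603-17184902 on the + strand, the Errfi1 window chr5:166606591-166606890 on the + strand and the Sult1a1 window chr1:190706063-190706362 on the - strand.
Dusp1: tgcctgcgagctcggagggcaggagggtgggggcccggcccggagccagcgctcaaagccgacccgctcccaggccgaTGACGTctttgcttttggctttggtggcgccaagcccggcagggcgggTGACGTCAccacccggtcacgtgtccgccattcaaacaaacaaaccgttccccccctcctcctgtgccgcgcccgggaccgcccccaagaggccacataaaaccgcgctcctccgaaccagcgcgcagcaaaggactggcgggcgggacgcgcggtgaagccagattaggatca
Errfi1: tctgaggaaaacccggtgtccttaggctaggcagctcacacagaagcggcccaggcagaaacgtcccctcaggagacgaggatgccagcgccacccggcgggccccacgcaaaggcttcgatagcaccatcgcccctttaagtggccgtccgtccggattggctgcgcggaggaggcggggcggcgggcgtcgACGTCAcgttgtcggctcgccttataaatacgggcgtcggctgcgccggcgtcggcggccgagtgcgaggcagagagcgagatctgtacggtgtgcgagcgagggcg
Sult1a1: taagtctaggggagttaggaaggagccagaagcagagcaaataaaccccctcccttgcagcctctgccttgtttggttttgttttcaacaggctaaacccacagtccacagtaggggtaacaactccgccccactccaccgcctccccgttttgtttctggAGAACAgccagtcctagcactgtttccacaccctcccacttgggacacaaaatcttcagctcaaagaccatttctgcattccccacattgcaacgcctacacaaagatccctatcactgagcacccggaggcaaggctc

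Dusp1 held the core at 3 positions, first bases 172, 124 and 122 bases before the start, of which the last 2 overlap as the forward and the reverse reading of one palindrome. Errfi1 held 1 such core 57 bases before the start, and Sult1a1 held 1 half-site 89 bases before it. The full palindrome of both half-sites with 3 bases between them was in none of the 12 windows and in 5 of all windows (0.0149%). A match is a match of letters only, and Fkbp5, Tsc22d3, Sgk1 and Nr3c1 had neither motif in these windows.

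Several of the genes ran together from library to library. In hypothalamus the fructose libraries of Sgk1, Errfi1 and Sult1a1 took the same order, with replicate 2 lowest and replicate 3 highest, and over all 7 libraries their log2 values had r = 0.90 (Sgk1 and Errfi1), 0.87 (Sgk1 and Sult1a1) and 0.93 (Errfi1 and Sult1a1). Dusp1 did not share that order, since fructose replicate 2 was its highest. The receptors and the reductase also had strong correlations with each other in hypothalamus. Nr3c1 and Hsd11b1 ran together (r = 0.87), and Nr3c2, at its chosen locus, ran opposite to both, with r = -0.89 to Nr3c1 and -0.92 to Hsd11b1. Control replicate 1 was the lowest of the 7 libraries at that locus (3.80 FPKM) but the highest at the other Nr3c2 locus (5.66 FPKM). The r of the other locus was not computed, so the opposite course is given for the chosen locus only. Of the 45 pairs of genes, 4 had r over 0.8 and 2 had r under -0.8 in hypothalamus, against 1 and 1 in hippocampus. Without the replicate 1 libraries these counts were 11 and 9 over 5 hypothalamus libraries, and 2 and 2 over 6 hippocampus libraries. In hypothalamus Nr3c1 then had r = -0.95 to Sgk1, and Nr3c2, at its chosen locus, had r = 0.91 to Sgk1. Strong correlations thus also ran between the receptors and Sgk1. In hippocampus Errfi1 and Sult1a1 had r = 0.86 over 8 libraries, and Dusp1 and Nr3c1 had r = -0.88. These correlations are descriptions, and the libraries share their groups and the split of replicate 1 from the rest.

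Sums of marker genes of other cell types ran beside these values. The 12 meningeal fibroblast markers summed to 168.3, 81.8 and 365.0 FPKM in hypothalamus fructose libraries 1 to 3, against 402.8, 481.7, 555.4 and 787.9 FPKM in control libraries 1 to 4. The fructose libraries took the same order as for Sgk1, Errfi1 and Sult1a1. Sums of mural, choroid plexus and hypothalamic neuron markers took that order too, and with 3 libraries few orders are possible. Each of the 12 fibroblast genes was lower on average with fructose (median log2 fold change -1.54). In 5 of them every fructose library was below every control. In hippocampus, where Sult1a1 was higher on average with fructose, the same markers summed to 411.7, 676.4, 202.0 and 372.5 FPKM in fructose and 287.6, 86.0, 56.3 and 550.0 FPKM in control libraries, and all 12 were positive (median 0.92). The highest fructose and the highest control library were the same for Sult1a1 and for the markers. Mural cell markers, of 10 in hypothalamus, summed to 240.7 to 452.6 FPKM in fructose and to 367.2 to 746.5 FPKM in control libraries. Of these 7 had a negative log2 fold change (median -0.97), among them the contractile genes Acta2 (-1.39) and Tagln (-1.23), which are among the most abundant of the list. The other 3 were positive, namely Rgs5 (0.09), Abcc9 (0.01) and Kcnj8 (0.17). For Kcnj8 every fructose library lay above every control, as in 1.75% of all loci. For Vtn (-0.84) every fructose library lay below every control, as in 1.58% of all loci. Among mural markers in hippocampus 8 of 9 were positive (median 0.54), and the 9 in the table summed to 364.6 to 1186 FPKM in fructose and 154.1 to 1711 FPKM in control libraries.

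Endothelial markers summed to 109.5, 143.7 and 117.7 FPKM in hypothalamus fructose libraries 1 to 3, against 145.3, 136.9, 155.4 and 155.2 FPKM in control libraries 1 to 4. The groups overlapped, and the fructose libraries took the order of Dusp1, with replicate 1 lowest and replicate 2 highest. The sums of astrocyte, microglia, ependymal and hippocampal neuron markers took that order too, and with 3 libraries few orders are possible. Of 10 endothelial markers 9 had a negative log2 fold change (median -0.28). Icam2 had every fructose library below every control, as did 1.58% of all loci. In hippocampus 9 of 10 were positive (median 0.13), with sums of 187.8 to 236.5 FPKM in fructose and 164.2 to 237.0 FPKM in control libraries. The mural and endothelial genes named here were chosen after their values were seen. No marker of the meningeal, mural and endothelial lists was at 0 in every library. Their part in the values of the 10 genes was not tested, and in bulk tissue fewer cells of a type and less RNA per cell cannot be told apart.

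**Figure D4:**
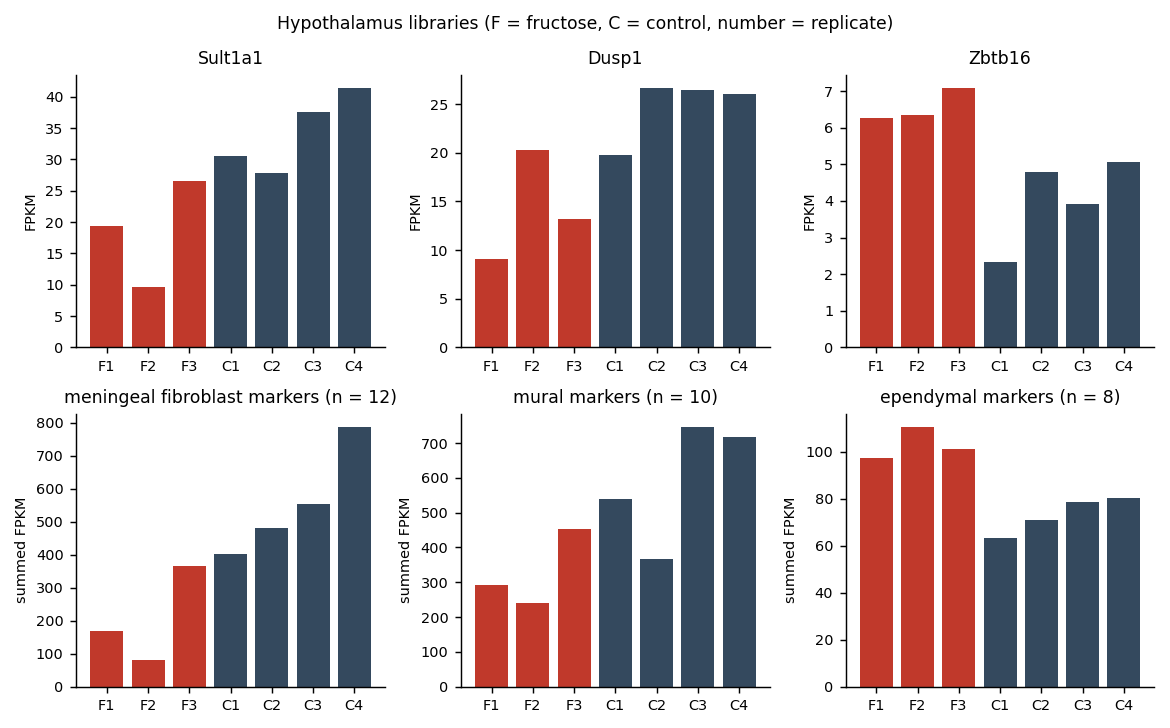
Hypothalamus libraries 1 to 3 with fructose (red, F) and 1 to 4 without (blue, C): FPKM of Sult1a1, Dusp1 and Zbtb16 in the upper row and the summed FPKM of meningeal fibroblast, mural and ependymal markers in the lower row, all from 0. Meningeal markers lie at 81.8 to 365.0 FPKM with fructose and 402.8 to 787.9 FPKM without, ependymal markers at 97.3 to 110.5 FPKM with fructose and 63.5 to 80.4 FPKM without.

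Zbtb16 in hypothalamus had ependymal markers beside it. The 8 markers of these ciliated cells summed to 97.3 to 110.5 FPKM in fructose and to 63.5 to 80.4 FPKM in control libraries. Of the 8 log2 fold changes 7 were positive (median 0.62). In 6 markers every fructose library was above every control, as in 1.75% of all loci. In hippocampus the sums were 59.4 to 84.5 FPKM in fructose and 64.3 to 87.6 FPKM in control libraries, with 2 of 8 positive (median -0.16). None of the 8 was at 0 in every library. The 5 loci whose log2 values were most like those of Zbtb16 over the 7 hypothalamus libraries were Ccdc135 (r = 0.99), Lyrm1 (0.96), Tmem212 (0.96), Spata18 (0.96) and Zfp865 (0.93), and Tmem212 is on the ependymal list. Without the replicate 1 libraries these r values were 0.86 to 0.99 over 5 libraries. In hippocampus the 5 were Mirlet7c-1, Fam129c, Necab1, Bsn and Nrsn1, at r = 0.91 to 0.94 over 8 libraries. The likeness to ependymal markers was read after these values were seen, and its part was not tested.

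For Dusp1 the nearest loci in hippocampus were Rgs2, a regulator of G protein signalling (r = 0.97), Ch25h (0.95), Snx17 (0.95), Fzd6 (0.95) and the second Dusp1 locus (0.94). In hypothalamus Palmd, Cd99, C1qa and LOC500300 were among the nearest, at r = 0.93 to 0.94. Of the loci named for likeness, Rgs2, Mirlet7c-1, Necab1 and Zfp865 have 2 loci in their table and Lyrm1 has 3.

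The genes also differed in how steady they were. Within groups the SD of log2(FPKM + 1) had a median of 0.24 over all tested loci in hippocampus and 0.25 in hypothalamus. Sult1a1 had a larger SD (0.80 and 0.48) than 93.0% and 86.4% of loci, Sgk1 (0.55 and 0.53) than 89.0% and 89.7%, and Dusp1 (0.68 and 0.38) than 91.5% and 76.0%. Fkbp5 was the steadiest in hippocampus (0.16, above 20.8% of loci) and Tsc22d3 in hypothalamus (0.18, above 28.0%).

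Other genes known to respond to glucocorticoids were read from a list of 30, of which 24 were tested in each region and 0 passed in either direction. In hypothalamus 16 of the 24 had a negative log2 fold change (median -0.14, against 0.006 over all tested loci), and in hippocampus 10 (median 0.07, against -0.004). Over the 10 genes themselves the median was -0.08 with 7 negative in hypothalamus and 0.08 with 4 negative in hippocampus. Of all tested loci 48.5% were negative in hypothalamus and 51.4% in hippocampus. Nfkbia, the inhibitor that holds NF-kappa-B in the cytoplasm, was at 19.4 ± 3.40 FPKM in fructose and 35.3 ± 2.04 FPKM in control hypothalamus (SD, n = 3 and 4). Cebpd, a transcription factor of the acute phase response, was at 7.10 ± 1.80 FPKM with fructose and 11.96 ± 2.34 FPKM without. In both genes every fructose library lay below every control library, as in 1.58% of all loci. Ctgf, a matrix-associated growth factor, was at 6.56 ± 2.01 FPKM in fructose and 14.1 ± 4.40 FPKM in control hypothalamus, and Txnip, an inhibitor of thioredoxin, at 31.7 ± 13.5 FPKM with fructose and 49.9 ± 9.50 FPKM without. None of these 4 passed the test. In hippocampus, with overlapping groups, Nfkbia had a log2 fold change of -0.33 ± 0.23, Txnip of 0.45 ± 0.37 and Ctgf of 0.65 ± 0.57.

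Other lists held genes that serve the receptors. Of the chaperones and coregulators, 18 were tested in hippocampus (11 positive, median 0.03) and 16 in hypothalamus (13 positive, median 0.08), and 0 passed. Fkbp4, the co-chaperone that carries the receptor to the nucleus, was at 112.3 ± 3.62 FPKM in fructose and 105.1 ± 9.97 FPKM in control hypothalamus. Of genes of corticosteroid handling 5 were tested in hippocampus (4 negative) and 6 in hypothalamus (3 negative), and 0 passed. Among them the reductase Akr1c14 was at 2.17 ± 1.21 FPKM with fructose and 4.75 ± 1.88 FPKM without in hypothalamus. In hippocampus Akr1c14 was at 2.62 ± 1.47 FPKM with fructose and 1.60 ± 1.65 FPKM without. Its groups overlapped in both regions. H6pd, which supplies Hsd11b1 with its cofactor, was at 2.88 ± 0.60 FPKM with fructose and 2.76 ± 0.64 FPKM without in hypothalamus.

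Peptides and receptors of the stress axis were tested for 6 genes in hippocampus (3 negative) and 11 in hypothalamus (6 negative), and 0 passed. Crh, the hypothalamic releasing hormone that starts the axis, was at 6.17 ± 0.72 FPKM in fructose and 7.75 ± 0.83 FPKM in control hypothalamus, with overlapping groups. Pomc, the precursor of corticotropin, was at 198.4 ± 36.6 FPKM with fructose and 154.9 ± 69.3 FPKM without. Of the activity-induced genes 8 of 12 tested had a negative log2 fold change in hypothalamus (median -0.17) and 4 of 13 in hippocampus (median 0.06), and 0 passed. In hypothalamus Fos was at 27.0 ± 5.23 FPKM with fructose and 36.1 ± 5.34 FPKM without, and Junb, a transcription factor of the same family, at 16.7 ± 5.73 FPKM with fructose and 24.4 ± 2.86 FPKM without. The groups overlapped for both genes.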

How the data were processed

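Messenger RNA was enriched by poly-A selection and sequenced, per the labels' protocols. The authors deposited FPKM values, 1 table per region, with a status flag per value. Per the submitters' processing notes, build rn5 and the tools Cuffdiff, Cufflinks, TopHat, TopHat2, Bowtie and Bowtie2 were involved, with no versions or order. Of 18087 loci in hippocampus and 17762 in hypothalamus, 117 and 36 had a status other than OK and were kept.

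Columns were matched to samples by region, group and replicate number, and 15 of the libraries were used. FPKM are not counts, so log2(FPKM + 1) was tested with limma 3.58.1 in R 4.3.3, fitting only the group, letting the prior variance follow the mean, and adjusting by Benjamini-Hochberg at 0.05. Loci under a mean of 1 FPKM were left out. Depth is unknown, as the tables hold no counts. A fold change on this scale understates that of low genes. The design assumed 4 fructose libraries in hypothalamus, where 3 were available. The fit was tested on simulated data. The members and the lists were chosen with earlier results of these data known. Named are the 10 members, up to 4 genes with the smallest p of each gene list, and the 5 loci most like Dusp1 or Zbtb16 by Pearson r, of which 1 is not reported here. A list gene with several loci was taken at the highest. Alternatives were the pseudocount, the filter, scaling, summed loci, the variance prior, leaving out libraries and the replicate block; taking every symbol at its highest locus in the test between regions was added after seeing the data.

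Same-numbered libraries deviated together from their groups, with r = 0.21 to 0.89 in hippocampus and 0.46 to 0.85 in hypothalamus. Libraries of different numbers were not compared in this way. Replicate numbers served as pairs for description and in the replicate block, while the main test was unpaired. Among replicates 2 to 4 alone r was -0.23 to 0.40 in hippocampus and 0.04 to 0.27 in hypothalamus. Plots used Python 3.11.15 and matplotlib 3.10.9.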

Additional observations from a re-analysis of the deposited data

Results flagged for a closer look

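Among the named genes, 9 groups of 4 libraries held 1 library far from the other 3, out of 90 groups examined. The rule would flag about 1 in 20 independent groups of normally distributed values. These genes share their libraries and the list genes were picked by p, so the 9 cannot be set against that rate. Of the 10 members, Errfi1 in hippocampus was at 18.15 FPKM in control replicate 4, against 11.2 to 12.1 FPKM in the other controls. Dusp1 in hypothalamus was at 19.73 FPKM in control replicate 1, against 26.1 to 26.7 FPKM. Hsd11b1 in hypothalamus was at 26.57 FPKM in control replicate 1, against 15.4 to 17.2 FPKM. Of the list genes, Pomc in hippocampus was at 15.09 FPKM in fructose replicate 1, against 0.456 to 1.94 FPKM in the other fructose libraries, and at 3.064 FPKM in control replicate 1, against 0.493 to 0.840 FPKM. Egr1 in hippocampus was at 46.77 FPKM in control replicate 1, against 21.96 to 24.4 FPKM, and Cyp7b1 at 8.28 FPKM in control replicate 1, against 10.8 to 11.2 FPKM; both have 2 loci there. Crh in hypothalamus was at 6.502 FPKM in control replicate 2, against 8.07 to 8.21 FPKM, and Nr4a1 at 16.78 FPKM in control replicate 2, against 10.3 to 10.7 FPKM. Of the 9, 6 were replicate 1 libraries, which stood apart in each region.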

How the results depend on the processing

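None of the 10 genes passed the threshold under any alternative run, and the lowest limma adjusted p was 0.9997 in hippocampus, 0.307 in hypothalamus (Dusp1, -0.79 with the replicate block) and 0.4777 for the difference between regions. Directions held in 149 of 160 values in hippocampus, 139 of 150 in hypothalamus and 178 of 184 of the difference. The count of hippocampus loci past the threshold was 0, and 0 to 1 with 1 library left out. In hypothalamus it was 1, but 0 at a mean FPKM of at least 5, 2 without both replicate 1 libraries, 2 with the replicate block and 0 to 2 with 1 library left out. For the difference it was 0, and 0 to 1 with 1 library left out. The replicate block changed no other call. Loci at an unadjusted p under 0.05 numbered 92 in hippocampus (204 unfiltered, 42 at a mean of at least 5, 203 with the block, 65 to 243 with 1 library left out). In hypothalamus they numbered 361 (548, 205, 759, and 146 to 678), and for the difference 209 symbols (382 and 97 for the filters, 324 without both replicate 1 libraries, and 88 to 360).

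Without both replicate 1 libraries the log2 fold change turned to -0.12 for Tsc22d3 and 0.002 for Hsd11b1 in hippocampus, and to -0.117 for Fkbp5 and 0.058 for Hsd11b1 in hypothalamus. The difference turned to 0.019 for Sgk1 and 0.057 for Hsd11b1. With the replicate block Nr3c2 in hypothalamus was 0.048. With 1 library left out, hippocampus values ran from -0.202 to 0.382 for Dusp1, -0.48 to 0.019 for Sgk1, -0.027 to 0.219 for Tsc22d3, -0.185 to 0.01 for Nr3c1, -0.275 to -0.075 for Nr3c2 and -0.146 to 0.022 for Hsd11b1. Hypothalamus values ran from 0.02 to 0.283 for Nr3c1, -0.135 to 0.219 for Fkbp5, -0.207 to 0.021 for Tsc22d3, -0.148 to 0.048 for Nr3c2 and -0.172 to 0.079 for Hsd11b1, and the difference for Hsd11b1 from -0.118 to 0.133. The causes were not tested. With 3 or 4 libraries a group and unknown depth, a p that misses the threshold does not show that levels were alike.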
